A study of Macaca mulatta with 12 samples.

Results

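TM7SF2, CYP51A1 and DHCR7 encode enzymes of the post-squalene segment of cholesterol synthesis, in which the first sterol, lanosterol, is trimmed and its double bonds are moved or reduced. The 3 genes were taken by symbol, as all probe sets that the platform annotation assigns to exactly 1 of them. This gave 6 probe sets of 3 genes among 52707 tested probe sets, which represent 14132 genes. TM7SF2 had 3 probe sets, CYP51A1 had 2 and DHCR7 had 1, and a gene is represented below by its probe set with the highest mean over all arrays.

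The corpus luteum is the gland that develops out of the follicle after ovulation, and it makes progesterone from cholesterol. Luteal cells take up cholesterol from circulating lipoproteins and also make it, through squalene and lanosterol. CYP51A1 (lanosterol 14-alpha-demethylase) takes the 14-alpha-methyl group off lanosterol, TM7SF2 is a C14 sterol reductase that reduces the double bond this leaves, and DHCR7 (7-dehydrocholesterol reductase) performs the last reduction to cholesterol. Genes of the pathway are known targets of the SREBP transcription factors, which are activated when sterols in the endoplasmic reticulum are scarce.

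RNA was measured in 12 corpora lutea of normally cycling female rhesus macaques, 1 Affymetrix rhesus array per gland. Late regressed glands (n = 4) were taken on days 14 to 16 after the LH surge with serum progesterone below 0.5 ng/ml. Late functional glands (n = 4) came from the same days with serum progesterone above 1.5 ng/ml, and mid-late glands (n = 4), the baseline of the study, came from days 10 to 12. The progesterone level thus defined the late regressed group, the labels name no drug or genetic change in any group, and RNA came from frozen tissue and not from sorted cells. In such bulk tissue, fewer cells of a type and less RNA per cell cannot be told apart.

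Values are log2 array signals as deposited, on which a difference of 1 is a doubling of signal, and groups are given as mean ± SD. Late regressed arrays 1 to 4 were far apart from each other, scoring -8.07, 93.2, 81.6 and 12.6 on a first principal component that held 40.8% of the variance, where the late functional arrays scored between -20.3 and 2.67 and the mid-late arrays between -43.0 and -28.5. The log2 difference between 3′ and 5′ control signal, a measure of RNA integrity, was 2.52 on late regressed array 2 and between 0.46 and 0.70 on the other 11 arrays. A set of 674 mostly dim probe sets with the identifier prefix NC of unstated targets averaged 3.48 to 3.58 on late regressed, 3.53 to 3.61 on late functional and 3.65 to 3.75 on mid-late arrays. The 95th percentile of that set's probe set means, 4.64, is used below as a mark of low signal. Markers of steroidogenic luteal cells averaged 11.44, 9.53, 9.18 and 11.00 on late regressed arrays 1 to 4, against 11.80 to 12.22 on late functional and 12.30 to 12.57 on mid-late arrays (5 of 8 markers measured).

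In late regressed against mid-late glands, TM7SF2 and CYP51A1 fell, and DHCR7 had a log2 difference of -2.32 but missed the threshold. The call requires an adjusted p below 0.05 in limma's fit across all probe sets. The same threshold was passed downward by 5.51% of the 14132 genes (13.1% in either direction). Groups without overlap in this direction, as for TM7SF2 and CYP51A1, were found for 9.96% of genes. The genes were picked with results of these data in view, so these shares are a description.

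TM7SF2 (probe set MmuSTS.4115.1.S1_s_at) gave 9.76, 6.64, 6.79 and 8.70 on late regressed arrays 1 to 4. Its signal was 10.53, 10.75, 10.54 and 10.27 on late functional arrays 1 to 4, against 10.08, 10.21, 10.13 and 10.24 on mid-late arrays 1 to 4. Every late regressed array lay below every array of the other groups, with arrays 2 and 3 far below and array 1 close to them. The group means were 7.97 ± 1.52 in late regressed and 10.17 ± 0.08 in mid-late glands, a 4.57-fold lower signal (log2 difference -2.19, SE 0.55, 95% interval -3.40 to -0.99, adjusted p = 0.0320). A SD of 0.08 made TM7SF2 the most even of the members among mid-late glands, and one of 1.52 the most uneven among late regressed ones.

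The second probe set of TM7SF2, MmugDNA.16874.1.S1_s_at, gave 9.73, 5.78, 6.78 and 8.81 on late regressed arrays, and 9.98, 10.12, 10.09 and 10.13 on mid-late arrays. It was highest on late regressed array 1, then 4, 3 and 2, the same order as the first, and it also fell, as did 4.61% of all probe sets (log2 difference -2.31, SE 0.66, adjusted p = 0.0473). The third, MmugDNA.32397.1.S1_at, stayed between 3.33 and 3.94 on all 12 arrays, below the mark of low signal, and is not read as a level of the gene. The suffix _s_at of both brighter probe sets is the array maker's mark for probes that can match more than 1 transcript.

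CYP51A1 (MmugDNA.10139.1.S1_at) gave 8.36, 6.88, 7.10 and 7.76 on late regressed arrays 1 to 4. Its signal was 8.78, 9.35, 8.43 and 8.45 on late functional arrays, against 9.14, 9.14, 8.59 and 8.60 on mid-late arrays. The late regressed arrays again lay below all others, but array 1 was only just below the lowest late functional gland. The means were 7.53 ± 0.67 in late regressed and 8.87 ± 0.31 in mid-late glands, a 2.53-fold lower signal (log2 difference -1.34, SE 0.31, 95% interval -2.02 to -0.66, adjusted p = 0.0248). The second CYP51A1 probe set, MmuSTS.4025.1.S1_at, averaged 6.39 ± 1.04 in late regressed and 7.83 ± 0.30 in mid-late glands and was not called (log2 difference -1.43, adjusted p = 0.0722). On it, late regressed array 1 (7.92) lay within the mid-late range, while arrays 2, 3 and 4 (6.14, 5.64 and 5.88) lay below it.

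DHCR7 (MmugDNA.40849.1.S1_at) gave 7.63, 4.41, 4.68 and 5.30 on late regressed arrays 1 to 4. Its signal was 8.06, 8.50, 7.52 and 6.39 on late functional arrays, against 8.00, 8.92, 7.07 and 7.33 on mid-late arrays. Late regressed array 1 lay inside the range of both other groups, and the other 3 lay below all of them. The means were 5.51 ± 1.46 in late regressed and 7.83 ± 0.82 in mid-late glands, a 5.01-fold lower signal that was not called (log2 difference -2.32, SE 0.69, 95% interval -3.82 to -0.82, adjusted p = 0.0526). Late regressed arrays 2 and 3, at 4.41 and 4.68, were at the mark of low signal (4.64), where array values flatten towards background. Among the late functional and mid-late glands DHCR7 had the widest spread of the 3 genes, with a SD of 0.91 in late functional and 0.82 in mid-late glands.

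**Figure D1:**
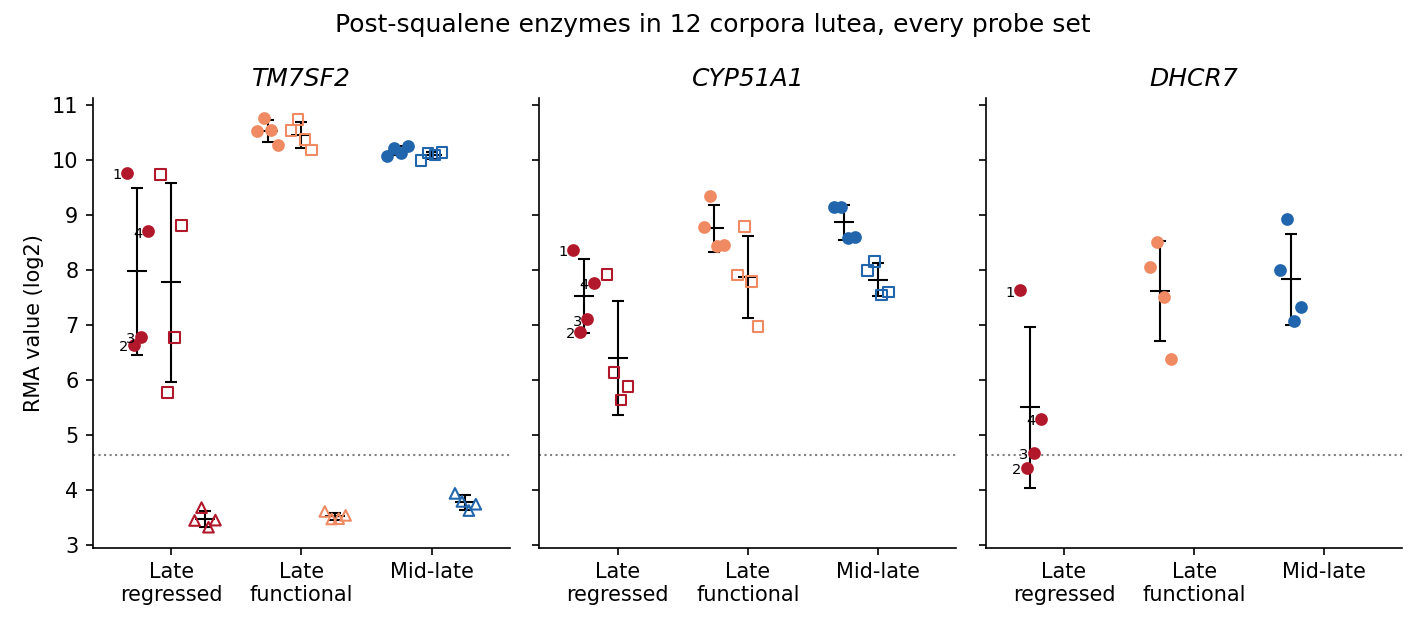
Log2 array signal (vertical axis) of TM7SF2, CYP51A1 and DHCR7 on each array of the late regressed, late functional and mid-late groups, with filled circles for the brightest probe set of a gene, open symbols for its other probe sets, bars for mean ± SD (n = 4) and numbers for the late regressed arrays. Late regressed arrays 2 and 3 lie lowest for each gene's brightest probe set and array 1 lies near the other groups; the dotted line is the mark of low signal at 4.64.

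Which arrays entered the fit decided these calls. Without array 1, all 3 genes fell against mid-late, where 8.27% of all genes fell. The log2 differences were then -2.79 for TM7SF2 (adjusted p = 0.00318), -1.62 for CYP51A1 (adjusted p = 0.00538) and -3.03 for DHCR7 (adjusted p = 0.00607). Without arrays 2 and 3 none was called, and the log2 differences were -0.93 for TM7SF2 (adjusted p = 0.0657), -0.80 for CYP51A1 (adjusted p = 0.147) and -1.37 for DHCR7 (adjusted p = 0.317). In that fit 0.892% of all genes fell. Over the 12 fits that each left out 1 array, TM7SF2 was called in 6, CYP51A1 in 9 and DHCR7 in 2. Besides late regressed array 2 or 3, leaving out any 1 mid-late array ended the TM7SF2 call, and leaving out mid-late array 1 or 2 or late regressed array 3 ended that of CYP51A1. DHCR7 was called without late regressed array 1 or late functional array 4. The members' mean deviation from the mid-late mean was -0.37, -2.98, -2.76 and -1.70 on late regressed arrays 1 to 4. The steroidogenic marker level given above was likewise highest on array 1, then on array 4, and lowest on arrays 2 and 3. Array 2, with the weak 5′ signal, and array 3, whose 3′ to 5′ difference was 0.46, had similar values on the members' brightest probe sets. On the second TM7SF2 probe set array 2 gave 5.78 and array 3 gave 6.78. The second CYP51A1 probe set gave 6.14 on array 2 and 5.64 on array 3. A limma fit that also held each array's 3′ to 5′ value still called TM7SF2 (-1.89, adjusted p = 0.0452) and CYP51A1 (-1.19, adjusted p = 0.0357) against mid-late glands. DHCR7 was again not called in it (-2.09, adjusted p = 0.0830). That value stands out on late regressed array 2 alone. Apart from this fit, the part of RNA integrity in the members' values was not tested. The 3 genes' dependence on luteal cell content was not tested.

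Markers of other cell types were read on the same arrays. The macrophage markers averaged 8.28, 8.34, 9.54 and 7.74 on late regressed arrays 1 to 4, against 8.61 to 8.72 on late functional and 6.56 to 8.35 on mid-late arrays. Of 13 measured macrophage markers, 10 were higher in late regressed than in mid-late glands and 0 were called, and on late regressed arrays 1, 2 and 4 their mean lay below every late functional array. All 13 were higher in late functional than in mid-late glands, again with 0 called. Against mid-late glands 3 of 8 endothelial markers rose in late regressed ones, and 3 of 7 fibroblast markers rose while the other 4 were lower, where 7.6% of all genes rose. In the same comparison 0 of 3 T and NK cell, 0 of 3 smooth muscle and 0 of 2 erythroid markers were called. The part of these cell types in the member values was not tested. The dim NC set was lower in late regressed than in mid-late glands without overlap. With its mean as a covariate the differences of TM7SF2 (-1.43, adjusted p = 0.768) and CYP51A1 (-0.91, adjusted p = 0.739) were not called. That fit called 0 probe sets in this comparison, against 5282 in the main fit. Because the NC mean itself separated the 2 groups, the lost calls are not specific to these genes.

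The late regressed and late functional groups are matched for day and set apart by serum progesterone. All 3 genes were again lower in regressed glands by amounts near those above, and none was called. TM7SF2 averaged 7.97 ± 1.52 in late regressed and 10.52 ± 0.20 in late functional glands, a 5.84-fold lower signal (log2 difference -2.55, 95% interval -3.75 to -1.34, adjusted p = 0.154). CYP51A1 averaged 7.53 ± 0.67 in late regressed and 8.75 ± 0.43 in late functional glands, 2.34-fold lower (log2 difference -1.23, 95% interval -1.91 to -0.55, adjusted p = 0.198). DHCR7 averaged 5.51 ± 1.46 in late regressed and 7.62 ± 0.91 in late functional glands, 4.32-fold lower (log2 difference -2.11, 95% interval -3.61 to -0.61, adjusted p = 0.274). Late functional array 4 had the lowest DHCR7 signal of its group, 6.39, so that late regressed array 1 lay above it. The second probe sets had log2 differences of -2.68 for TM7SF2 (adjusted p = 0.189) and -1.47 for CYP51A1 (adjusted p = 0.269).

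In this comparison limma called 0 genes lower and 1 higher of 14132, which is 0.00708% in either direction, while 16.1% had an unadjusted p under 0.05. The 2 genes without overlap, TM7SF2 and CYP51A1, stand against 3.28% of genes whose late regressed arrays all lay below the late functional ones. Without late regressed array 1 all 3 genes fell, as did 1.69% of all genes. The log2 differences were then -3.14 for TM7SF2 (adjusted p = 0.00675), -1.51 for CYP51A1 (adjusted p = 0.0252) and -2.82 for DHCR7 (adjusted p = 0.0292). Leaving out any of the other 11 arrays called none of them. The late regressed arrays are shared by this comparison and the one against mid-late glands.

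The comparison of late functional with mid-late glands is one between different days of the luteal phase. None of the 3 genes was called, where 1.17% of genes were. TM7SF2 averaged 10.52 ± 0.20 in late functional and 10.17 ± 0.08 in mid-late glands, and each late functional array lay above each mid-late array. The difference was 0.35, a 1.28-fold higher signal (95% interval -0.85 to 1.56, adjusted p = 0.773). Its second probe set was also without overlap, at 10.53, 10.73, 10.37 and 10.18 on late functional arrays and 9.98 to 10.13 on mid-late ones (log2 difference 0.37, adjusted p = 0.802). Absence of overlap in this direction was found for 10.4% of genes. The interval is wide because the fit shares 1 spread among the 3 groups, and with only these 2 groups fitted the adjusted p was 0.0730. CYP51A1 differed by -0.11 (8.75 ± 0.43 in late functional and 8.87 ± 0.31 in mid-late glands, 95% interval -0.79 to 0.57, adjusted p = 0.880). DHCR7 differed by -0.21 (7.62 ± 0.91 in late functional and 7.83 ± 0.82 in mid-late glands, 95% interval -1.71 to 1.29, adjusted p = 0.900). These intervals leave room for a change of DHCR7 of more than a doubling in either direction.

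Whether the members moved by unequal amounts could hardly be settled with 4 arrays a group. The per-array difference between a pair of genes was compared between groups with exact two-sided permutation tests, 9 in all, whose smallest possible p is 0.0286. Adjusted over the 9, no single test at that minimum can pass 0.05, so the lack of a call says little. TM7SF2 minus CYP51A1 was 0.85 lower in late regressed than in mid-late glands (exact p = 0.114, 0.206 adjusted over the 9) and 1.32 lower than in late functional glands (exact p = 0.0571, 0.206 adjusted). TM7SF2 minus DHCR7 shifted by 0.13 in late regressed against mid-late glands (exact p = 0.743, 0.829 adjusted). CYP51A1 minus DHCR7 shifted by 0.98 in the same comparison (exact p = 0.114, 0.206 adjusted). The other 5 shifts ran from -0.43 to 0.88, and the adjusted p of all 9 lay between 0.206 and 0.829, so none passed.

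Outside the regressed group, DHCR7 and CYP51A1 varied together by Pearson's r, while Spearman's rho missed 0.05 after adjustment. TM7SF2 had low r with both over the pooled arrays and higher r within groups, so its relation to them stayed unsettled. Over the 8 late functional and mid-late arrays, Pearson's r between CYP51A1 and DHCR7 was 0.839 (exact permutation p = 0.00933, 0.0279 adjusted over 3 pairs), and Spearman's rho was 0.810 (exact permutation p = 0.0218, 0.0653 adjusted). Without the arrays farthest from the median of CYP51A1, late functional 2 and mid-late 2, r was 0.713 over 6 arrays, and with each group centred on its mean it was 0.836. TM7SF2 had r of 0.191 with CYP51A1 (exact permutation p = 0.636, rho -0.05 with p = 0.935) and 0.295 with DHCR7 (exact permutation p = 0.477, rho 0.190 with p = 0.665), with adjusted p of 0.636 for both r and 0.935 for both rho. Centred within groups these became 0.563 and 0.695, and without late functional arrays 2 and 3 they were -0.23 and 0.0836. Late functional array 2 and mid-late array 2 were high for CYP51A1 and DHCR7, and late functional array 4 was low for DHCR7.

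**Figure D2:**
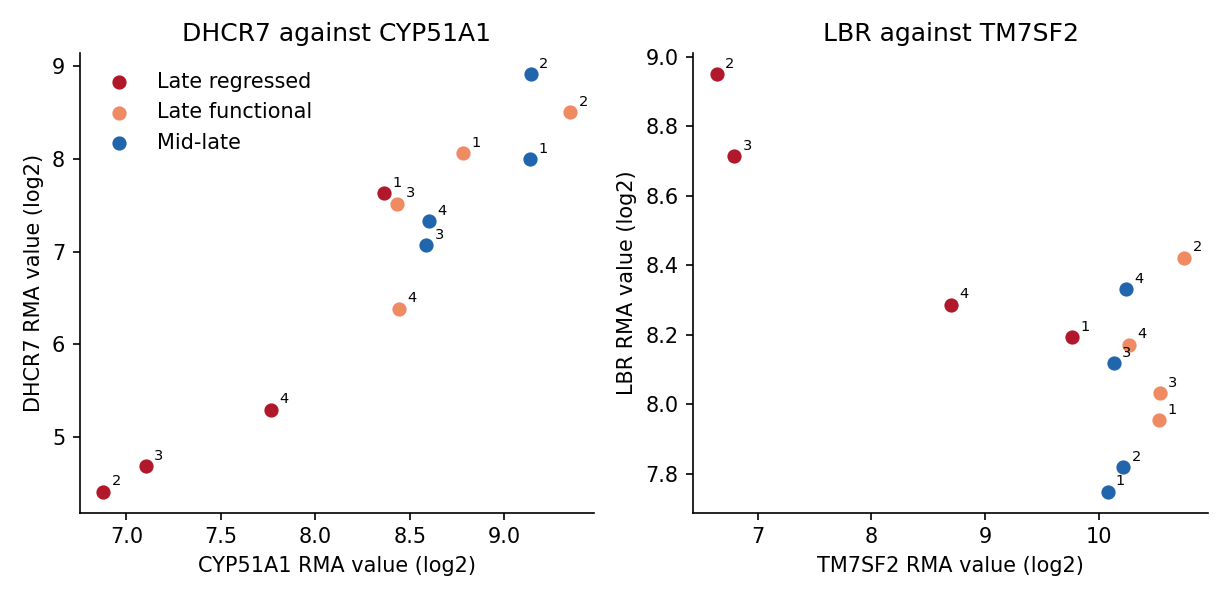
Log2 signal of DHCR7 against CYP51A1 and of LBR against TM7SF2 on each of the 12 arrays, with colours for the late regressed, late functional and mid-late groups and array numbers beside the points. DHCR7 and CYP51A1 rise together, also among the late functional and mid-late arrays (r = 0.839 over 8 arrays), while late regressed arrays 2 and 3 have the lowest TM7SF2 and the highest LBR signal.

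The other enzymes of the segment were lower in late regressed glands with 1 exception, and 0 of the 6 measured were called in any comparison. Of all genes, 13.1% were called in late regressed against mid-late glands. The share was 0.00708% in late regressed against late functional and 1.17% in late functional against mid-late glands. The median log2 difference of the 6 enzymes was -0.99 against mid-late and -0.94 against late functional glands, where the median of all 14132 genes was -0.02 and 0.00. EBP, the isomerase that shifts the double bond of the B ring, gave 9.23, 7.55, 7.05 and 7.53 on late regressed arrays 1 to 4, against 9.79, 10.00, 8.86 and 9.30 on mid-late arrays (log2 difference -1.65, adjusted p = 0.0616). As for DHCR7, late regressed array 1 lay inside the mid-late range and late functional array 4 (8.03) was the lowest of its group. Against late functional glands the log2 difference of EBP was -1.49 (adjusted p = 0.299).

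SQLE, the squalene epoxidase that feeds the segment, averaged 5.16 ± 0.74 in late regressed and 6.44 ± 0.35 in mid-late glands (log2 difference -1.29, adjusted p = 0.0686). NSDHL, which with MSMO1 and HSD17B7 removes the methyl groups at carbon 4, averaged 6.99 ± 0.82 in late regressed and 8.11 ± 0.25 in mid-late glands (log2 difference -1.12, adjusted p = 0.0531). HSD17B7 averaged 8.331 ± 0.24 in late regressed and 9.005 ± 0.36 in mid-late glands without overlap (log2 difference -0.67, adjusted p = 0.0515). Its groups nearly met, with a highest late regressed value of 8.646 and a lowest mid-late value of 8.649. Of these enzymes HSD17B7 had the tightest late regressed values, 8.13 to 8.65. ERG28, a scaffold protein of the C4 demethylation complex, averaged 7.02 ± 0.70 in late regressed and 7.88 ± 0.19 in mid-late glands, also without overlap (log2 difference -0.87, adjusted p = 0.0625). ERG28 alone of the 6 was also without overlap against late functional glands (log2 difference -0.93, adjusted p = 0.246). A second ERG28 probe set above the mark of low signal (MmugDNA.32040.1.S1_at) overlapped in both comparisons. Its adjusted p was 0.0904 against mid-late and 0.314 against late functional glands. Of all genes, 9.96% lay below mid-late and 3.28% below late functional glands without overlap.

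LBR, the lamin B receptor, carries the same C14 sterol reductase activity as TM7SF2 in a protein of the inner nuclear membrane. It gave 8.19, 8.95, 8.72 and 8.29 on late regressed arrays 1 to 4, against 7.75, 7.82, 8.12 and 8.33 on mid-late arrays. Its highest values were on late regressed arrays 2 and 3, on which TM7SF2 was lowest. The log2 difference of 0.53 was not called (adjusted p = 0.0819), nor was that of 0.39 against late functional glands (adjusted p = 0.433).

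Without late regressed array 1 the other enzymes passed the threshold against mid-late glands, in a fit in which 8.27% of all genes fell. Those that fell were EBP (-2.11, adjusted p = 0.0125), SQLE (-1.59, adjusted p = 0.0260), NSDHL (-1.47, adjusted p = 0.00509), ERG28 (-1.05, adjusted p = 0.0269) and HSD17B7 (-0.78, adjusted p = 0.0306). LBR rose by 0.65 (adjusted p = 0.0405), in a fit in which 11.5% of all genes rose. Against late functional glands, only NSDHL of these 6 fell in that fit, by 1.37 (adjusted p = 0.0234). Without late regressed arrays 2 and 3 none of the 6 was called. Over the 12 fits against mid-late glands that each left out 1 array, calls were few. NSDHL and LBR were called in 1 fit, SQLE, EBP and ERG28 in 2 and HSD17B7 in 3.

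Upstream of squalene the differences were smaller for most enzymes. Of 9 listed enzymes 6 were measured, and 0 were called in any comparison, beside the shares of all genes given above. The median log2 difference of these enzymes was -0.30 in late regressed against mid-late glands. IDI1, the isopentenyl diphosphate isomerase, differed by -1.07 (adjusted p = 0.106). FDFT1, the squalene synthase at the branch point to sterols, averaged 8.52 ± 0.79 in late regressed and 9.52 ± 0.32 in mid-late glands (adjusted p = 0.0839). MVK, PMVK, MVD and FDPS lay between -0.34 and 0.00. A second probe set of FDFT1 (MmugDNA.10742.1.S1_at) averaged 6.91 in late regressed and 8.48 in mid-late glands and did pass (adjusted p = 0.0447), as did a second one of HSD17B7 (MmugDNA.11013.1.S1_at, 6.01 in late regressed and 6.80 in mid-late glands, adjusted p = 0.0464). Further probe sets of the same and other enzymes did not pass. Their adjusted p was 0.0611 for HSD17B7 (MmugDNA.35206.1.S1_s_at), 0.0629 for EBP, 0.0674 and 0.203 for IDI1 and 0.0904 for ERG28. It was 0.133 for NSDHL, 0.138 for MVK (MmuSTS.1926.1.S1_at), 0.177 for SQLE and 0.201 for MVD. A dim MVK probe set (MmugDNA.18270.1.S1_at) passed, but its mean lies below the mark of low signal and it is not read as a level of the gene.

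**Figure D3:**
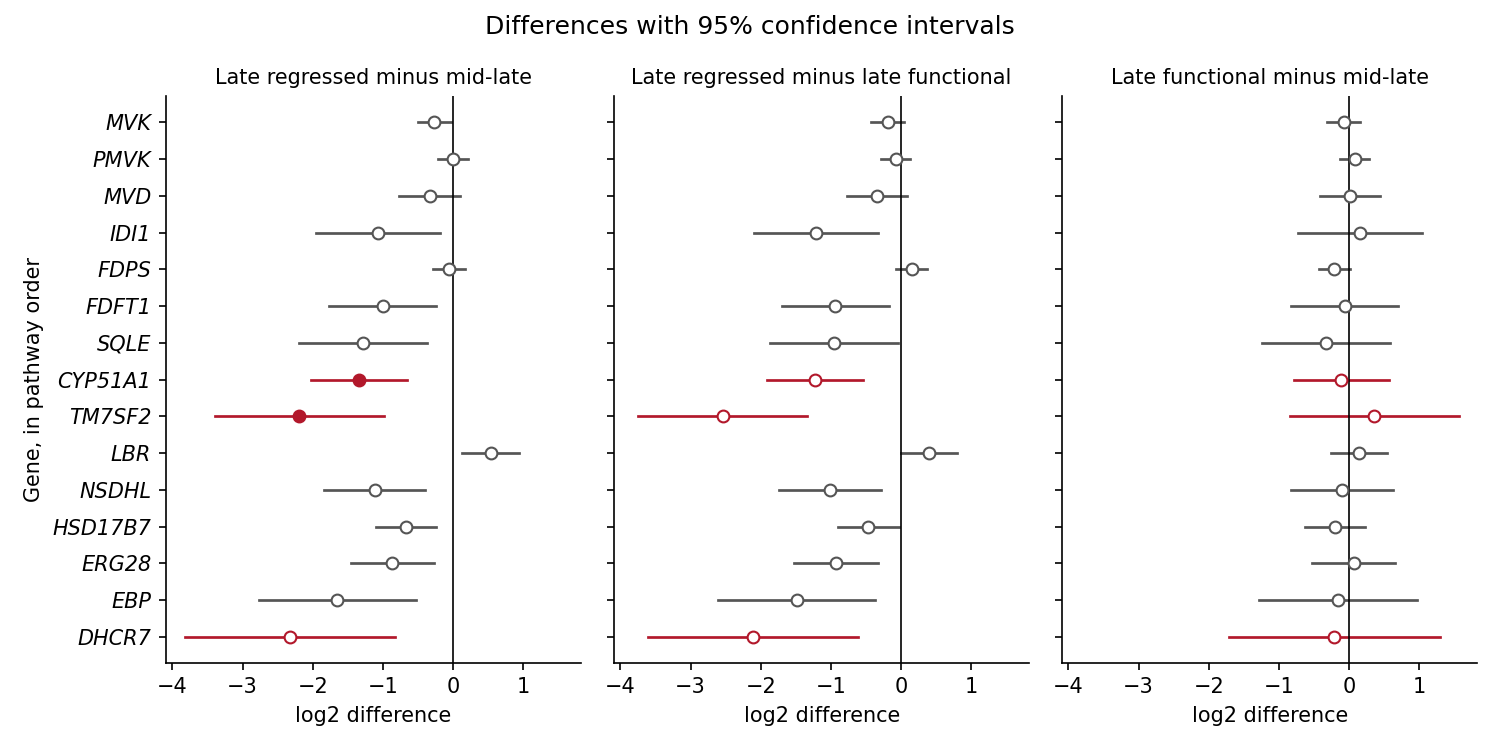
Log2 differences with 95% intervals for the cholesterol synthesis genes in late regressed against mid-late, late regressed against late functional and late functional against mid-late glands, members in red and called genes (adjusted p below 0.05) filled. In late regressed against mid-late glands TM7SF2 and CYP51A1 are called, and LBR is on the other side of 0 from the other post-squalene enzymes.

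**Figure D4:**
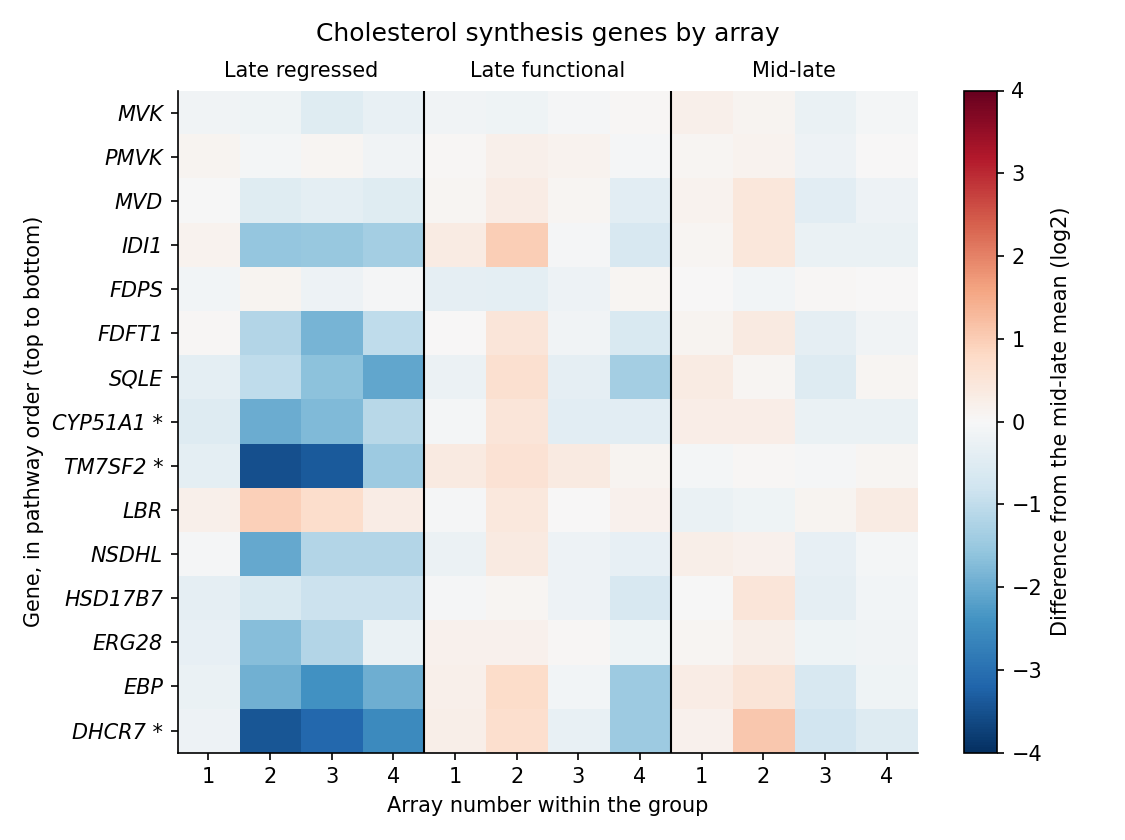
Log2 signal of each cholesterol synthesis gene on each array minus the gene's mid-late mean, with arrays grouped as late regressed, late functional and mid-late and the 3 members marked by an asterisk. The low values lie on late regressed arrays 2, 3 and 4 for most post-squalene genes, IDI1 and FDFT1. Late regressed array 1 lies closer to the mid-late mean for these genes, but for ERG28 array 4 is the closest.

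Among 6 measured regulators of the SREBP pathway, 1 rose and 0 fell in late regressed against mid-late glands, where 7.6% of all genes rose. SREBF1, which encodes the SREBP1 precursor, gave 8.45, 8.79, 8.70 and 8.31 on late regressed arrays, against 8.00, 7.87, 7.95 and 8.07 on mid-late arrays (log2 difference 0.59, adjusted p = 0.0134). A second SREBF1 probe set above the mark of low signal was not called (MmugDNA.6206.1.S1_at, log2 difference 0.28, adjusted p = 0.153). Without late regressed arrays 2 and 3 the difference of the brighter SREBF1 probe set, given first, was 0.40 and was not called (adjusted p = 0.0803). SREBF2, which encodes SREBP2, the form best known for cholesterol synthesis genes, averaged 7.72 ± 0.33 in late regressed and 8.22 ± 0.05 in mid-late glands (log2 difference -0.50, adjusted p = 0.0663). INSIG1, which holds the SREBP precursor in the endoplasmic reticulum and is itself an SREBP target, gave 7.91, 8.81, 8.89 and 7.11 on late regressed arrays, against 7.68, 8.24, 7.61 and 7.80 on mid-late arrays (log2 difference 0.35, adjusted p = 0.594). Arrays 2 and 3, the lowest of all for the brightest TM7SF2, CYP51A1 and DHCR7 probe sets, were thus the highest of all for INSIG1.

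Of 12 genes of sterol uptake, storage and carriage 7 were measured, and in late regressed against mid-late glands 2 fell and 1 rose, beside 5.51% of all genes that fell and 7.6% that rose. STARD4, a soluble sterol carrier that is also an SREBP target, averaged 6.80 ± 1.21 in late regressed and 8.69 ± 0.12 in mid-late glands (log2 difference -1.89, adjusted p = 0.0301). It gave 8.50, 6.23, 5.72 and 6.74 on the late regressed arrays, running as the members do, with array 1 just below the mid-late range, and without arrays 2 and 3 it was not called (-1.07, adjusted p = 0.173). NPC1, which exports cholesterol from late endosomes, fell by 0.50 (adjusted p = 0.0389), and its partner NPC2 rose by 0.74 (adjusted p = 0.0307). Both lost the call without arrays 2 and 3, with differences of -0.53 (adjusted p = 0.128) and 0.42 (adjusted p = 0.189). In both other comparisons, 0 of the 6 regulators and 0 of the 7 carriage genes were called. Few genes were called there at all, 0.00708% against late functional glands and 1.17% in late functional against mid-late glands.

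The genes most like each member over the 12 arrays were ranked by Pearson's r among 8828 other named genes above the mark of low signal. All 12 arrays enter, so the late regressed arrays weigh heavily in r, and it is given as a description. For TM7SF2 the 5 highest were CENPJ (0.986), CMTR1 (0.981), GPR155 (0.981), FBXL7 (0.980) and STAR (0.980), which encodes the protein that delivers cholesterol to the inner mitochondrial membrane. For CYP51A1 they were SAC3D1 (0.976), CMAS (0.965), WDR49 (0.963), AUH (0.963) and SLC33A2 (0.958), with DHCR7 at rank 8 (0.953) and NSDHL at rank 9 (0.952). For DHCR7 they were IDI1 (0.972), EBP (0.971), MKRN1 (0.970), FDFT1 (0.961) and DCLK1 (0.959). Thus 3 of the 5 for DHCR7 and 0 of the 5 for TM7SF2 or CYP51A1 were other enzymes of cholesterol synthesis. LBR had r of -0.79 with TM7SF2, -0.79 with CYP51A1 and -0.78 with DHCR7.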

How the data were processed

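RNA of 12 corpora lutea was labelled with biotin in 1 cycle of oligo-dT primed amplification and hybridised to 1-colour Affymetrix rhesus arrays, per the labels' protocols. The deposited values are log2 signals per probe set and array, made by the authors with RMA, per the submitters' processing notes. The RMA version and its options were not given in the sources used here. That the scale is log2 was taken from the values themselves. RMA usually gives all arrays nearly 1 distribution, which hides a change in total RNA. No batch was tested, since batches and scan dates are not stated.

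Groups and replicate numbers come from the sample titles, and the labels call the arrays biological replicates. Array medians ran from 4.31 to 4.43, and no arrays held identical values. Of 52865 probe sets, 158 controls were left out, and 24956 of the other 52707 carry exactly 1 gene symbol. No coordinates were used. Of the 3 members, 2 had their Entrez ID in RefSeq's present gene table, and DHCR7 was matched by symbol.

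All 12 arrays entered 1 fit of group means with limma 3.58.1 in R 4.3.3 (lmFit, eBayes), and p-values were adjusted over all 52707 probe sets within a comparison by Benjamini-Hochberg. Scripts were tested on simulated data. Exact permutation tests listed every rearrangement of the arrays. The one for differences between groups was compared with scipy 1.17.1 on simulated data. Precision is limited by the number of arrays. Genes named are the 3 members, every measured gene of the other post-squalene list, the called genes of the other lists, up to 4 a list, and the 5 genes most like each member. IDI1, FDFT1, SREBF2, INSIG1 and the further probe sets were named after their values were seen. The members and lists were chosen with earlier results of these data known. Alternatives comprised covariates (NC mean, 3′ to 5′ difference), low-signal filters, renewed quantile normalization, median centring, array weights, a trended robust prior, the replicate block, fits of the compared groups only, averaging of a gene's probe sets and fits with arrays left out. The mean over only the probe sets above the NC mark was added after the data were seen.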

Additional observations from a re-analysis of the deposited data

Results flagged for a closer look

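IDI1 on late regressed array 1, at 8.08, lay far above the other 3 late regressed arrays (6.39 to 6.55), with a gap to the nearest of them of 0.901 of the group's range. The same array had the highest TM7SF2, CYP51A1 and DHCR7 signal of its group. SCAP, which escorts the SREBP precursor, lay at 11.16 on late functional array 4, above the other 3 arrays of that group (10.75 to 10.82). These are 2 of 72 groups of 4 values examined, and chance gives about 1 in 20.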

How the results depend on the processing

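In late regressed against mid-late glands, TM7SF2 lost its call with the NC mean as a covariate (-1.43, adjusted p = 0.768), with only the compared groups fitted (-2.19, 0.0924) and without late regressed arrays 2 and 3 (-0.93, 0.0657). CYP51A1 lost it in the same fits (-0.91, 0.739; -1.34, 0.0600; -0.80, 0.147) and with array weights (-1.10, 0.0604). DHCR7 (-2.32) was called with either low-signal filter (0.0394 for the median and 0.0383 for the NC mark) and with the replicate block (0.0470). Of the 12 other cholesterol synthesis genes, 4 fell with each filter, 3 with renewed quantile normalization, 2 with the trended robust prior and 3 with the replicate block, against 0. The share of all genes that fell in these fits is not given, so the counts are a description. Probe sets called in either direction numbered 4309 with the median filter and 4109 with the NC filter, which test fewer probe sets. After quantile normalization they numbered 4457, against 5282 in the main fit. The replicate numbers do not pair the arrays, whose same-number deviations correlated between -0.12 and 0.30.

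Leaving out 1 array at a time, TM7SF2 ranged from -2.79 to -1.75 and was called in 6 of 12 fits. It was lost without any 1 of the mid-late arrays (0.0625 to 0.0756) or without late regressed array 2 (0.0584) or 3 (0.0788). CYP51A1 ranged from -1.62 to -1.12, called in 9, and was lost without mid-late array 1 (0.0667) or 2 (0.0683) or late regressed array 3 (0.0665). DHCR7 ranged from -3.03 to -1.96, called without late regressed array 1 or late functional array 4 (0.0475). Against late functional glands the ranges were -3.14 to -2.10, -1.51 to -1.01 and -2.82 to -1.75. In late functional against mid-late glands they were 0.28 to 0.44, -0.31 to -0.01 and -0.51 to 0.20. Other cholesterol synthesis genes that fell numbered 0 to 7 against mid-late and 0 to 3 against late functional glands, and those that rose 0 to 1 against mid-late.

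Against late functional glands, the 3 members stayed lower and uncalled under all 13 alternatives that do not leave out a single array. The differences that changed sign were uncalled in every setting. In late functional against mid-late glands these were CYP51A1 (0.25) and DHCR7 (0.59) with the NC mean as a covariate and DHCR7 with array weights (0.079). TM7SF2 minus DHCR7 in late regressed against late functional glands became 0.35 with the mean over probe sets. That mean includes the third TM7SF2 probe set, which lies below the mark of low signal on every array. With 1 array left out, TM7SF2 minus DHCR7 ranged from -0.21 to 0.37 in late regressed against mid-late glands, and CYP51A1 minus DHCR7 from -0.21 to 0.26 in late functional against mid-late glands.

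Probe sets called in late regressed against mid-late glands numbered 5282, but 0 with the NC mean, 1620 with only those groups, 2839 with array weights, 975 without arrays 2 and 3, and 2050 to 7532 with 1 array left out. Against late functional glands 1 was called, but 10 with either filter, 2 after median centring, 5 after quantile normalization, 5 with the NC mean, 0 with the 3′ to 5′ covariate, 15 with the robust prior, 0 with only those groups, 0 with the block, 11 with weights, 0 without arrays 2 and 3, and 0 to 924 with 1 array left out. In late functional against mid-late glands 470 were called, but 107 and 72 with the filters, 0 with the NC mean, 883 with the 3′ to 5′ covariate, 2682 with only those groups, 4 with the block, 3106 with weights, 2417 without late regressed arrays 2 and 3, and 4 to 1008 with 1 array left out. The share of calls that were higher in late regressed than in mid-late glands was 54.0%, and 67.6% after median centring, 45.4% after quantile normalization and 68.8% with the NC filter. In late functional against mid-late glands it was 37.2%, 56.2%, 25.2% and 52.8%. The causes of these shifts were not tested. Signal near background limits DHCR7 on late regressed arrays 2 and 3.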
